A study of Homo sapiens with 9 samples.

Results

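The genes described here encode the axon guidance ligands and receptors of the human genome. They were chosen by symbol, as the protein-coding genes of the semaphorin, plexin, neuropilin, ephrin, Eph receptor, Slit, Robo and netrin families, with the netrin receptors UNC5A to UNC5D, DCC and NEO1 and the paralogs BOC and CDON. The rule used no measured value, although it was chosen with earlier results of these data known. It found 72 genes among the 19920 protein-coding genes of the count table, namely 20 semaphorins, 14 Eph receptors, 9 plexins, 8 ephrins, 6 netrin receptors, 4 Robo receptors, 4 netrins, 3 Slits, 2 neuropilins and BOC with CDON. By role, 35 were ligands and 37 were receptors.

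RNA-seq was carried out on OVCAR3, an established human epithelial ovarian cancer cell line, to ask which transcripts move with the level of CTCFL (also called BORIS), a zinc-finger DNA-binding paralog of CTCF that is normally restricted to the testis. There were 3 libraries of each of 3 conditions. Control cells have no CTCFL treatment by their label and received a LacZ plasmid by the study's methods, and CTCFL-OE cells received a plasmid with the CTCFL open reading frame. Both transfections were transient, used 2 µg of plasmid and ended with the harvest at 48 h. CTCFL-KD cells carried a knockdown of CTCFL that the labels refer to an earlier report. By the study's methods, technical replicates of the plasmid transfections were pooled into each Control and CTCFL-OE replicate. The sources used here give neither the reagent and time of the knockdown nor a control made alongside it, and both conditions were set against the same 3 Control libraries, so the knockdown and any difference in handling cannot be told apart. All values belong to 1 cell line.

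Guidance molecules were named for steering growing axons, and the same proteins direct cell adhesion, migration and tissue boundaries in epithelia and blood vessels. Semaphorins bind plexins, in part with neuropilins as co-receptors, and plexin signalling collapses the cytoskeleton through small GTPases. Ephrins are membrane-bound ligands of the Eph receptor tyrosine kinases and signal in both directions at cell contacts. Slits bind Robo receptors, netrins bind DCC, NEO1 and the UNC5 receptors, and BOC and CDON are cell-surface proteins of the immunoglobulin superfamily that serve as Hedgehog co-receptors and also interact with NEO1.

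CTCFL itself had 6, 9 and 10 counts in the Control libraries, 36, 34 and 72 with overexpression and 0, 1 and 0 with knockdown, so the 3 conditions did not overlap. The study describes OVCAR3 as having high CTCFL levels, whereas these Control and knockdown counts are 10 or fewer and thus measured coarsely. Total counts per library ran from 14332622 to 24490080, and 3 counts, the most that a count of 0 allows, stood at 0.117 to 0.271 CPM (counts scaled to a library of 1000000). Mitochondrial transcripts took 6.16% to 6.52% of the counts in Control, 7.40% to 14.9% with overexpression and 7.80% to 11.8% with knockdown. CTCFL-KD replicate 1 stood apart from its group, since its deviation from the group fell with transcript length (Spearman correlation −0.588 across 12995 genes, against 0.562 and 0.546 in replicates 2 and 3), and its scaling factor was the lowest at 0.775. Control replicate 1 had a weaker trend in the same direction (−0.330, against 0.110 and 0.231 in Control replicates 2 and 3). The tested guidance genes had a median transcript length of 5816 bases, against 3304 bases for all genes tested. CTCFL-KD replicate 1 was the lowest of the 3 knockdown libraries for 40 of the 60 tested guidance genes (66.7%), against 46.0% of all genes tested. The knockdown counts over all guidance genes, by family and over the other pathway genes are therefore also given without it. Those by role, by level and by part of the pathway list are not. All 13 listed ovarian epithelial markers were expressed, and their summed level was 6397 to 6479 CPM in Control, 5812 to 5981 CPM in CTCFL-OE and 11036 to 19371 CPM in CTCFL-KD, where 8 of the 13 rose and KRT7 fell. Of 10 neuronal markers, 5 (SNAP25, STMN2, ELAVL4, NEFL and NEFM) had at most 3 counts in any library, and the summed level was 10.1 to 11.4 CPM in Control, 5.97 to 7.68 CPM in CTCFL-OE and 8.86 to 11.7 CPM in CTCFL-KD. Among them SYT1 rose in CTCFL-KD and RBFOX3 fell in both conditions. The summed level of 10 fibroblast markers was 28.0 to 33.8, 25 to 44.2 and 37.8 to 43.0 CPM in the same order. Of these, COL1A2 rose in CTCFL-KD, from 0 counts in each Control library and 1, 2 and 0 in CTCFL-OE to 156, 239 and 247, as did POSTN, from 2, 1 and 5 to 9, 18 and 13 counts, while COL1A1 was at 32, 30.9 and 26.4 CPM in Control and 26.1, 22.4 and 21.3 CPM in CTCFL-KD. The sum of 6 endothelial markers was 7.60 to 7.96, 9.10 to 10.9 and 5.64 to 6.58 CPM, and PECAM1 fell in CTCFL-KD. The part of these differences in the results on guidance genes was not tested, and in such bulk samples fewer cells of a type and less RNA per cell cannot be told apart.

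Receptors made up the most abundant guidance transcripts of the Control cells. Levels were compared between genes on a length-scaled scale, TPM, computed from the counts and the exonic length of each gene and summing to 1000000 in a library. Plexins summed to 407 ± 11.3 TPM (SD, n = 3) and Eph receptors to 339 ± 8.89 TPM, followed by semaphorins at 244 ± 4.36, ephrins at 194 ± 2.61, netrins at 73.7 ± 3.80, netrin receptors at 52.3 ± 3.73, Robo receptors at 17.7 ± 1.76, neuropilins at 10.7 ± 0.947, BOC and CDON at 7.70 ± 0.706 and Slits at 1.96 ± 0.126 TPM. EPHA2, an Eph receptor of epithelial cells that binds A-type ephrins, ranked first at 247 ± 5.4 TPM in Control. PLXNB2 and PLXND1, receptors for class 4 and class 3 semaphorins among others, followed at 148 ± 4.8 and 91.6 ± 3.8 TPM. PLXNB1 at 76.7 ± 6.5, PLXNA1 at 72.5 ± 2.8 and NTN1, the secreted ligand netrin 1, at 71.4 ± 4.0 TPM came next, and these 3 levels were within their SD of one another. At the other end, 13 of the 72 genes averaged under 1 CPM in every condition, and ROBO4 and UNC5D had no count in any of the 9 libraries, which allows up to 3 counts in each. DCC, the classical netrin receptor, had 1 count in 1 CTCFL-KD library and none in the others.

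**Figure D1:**
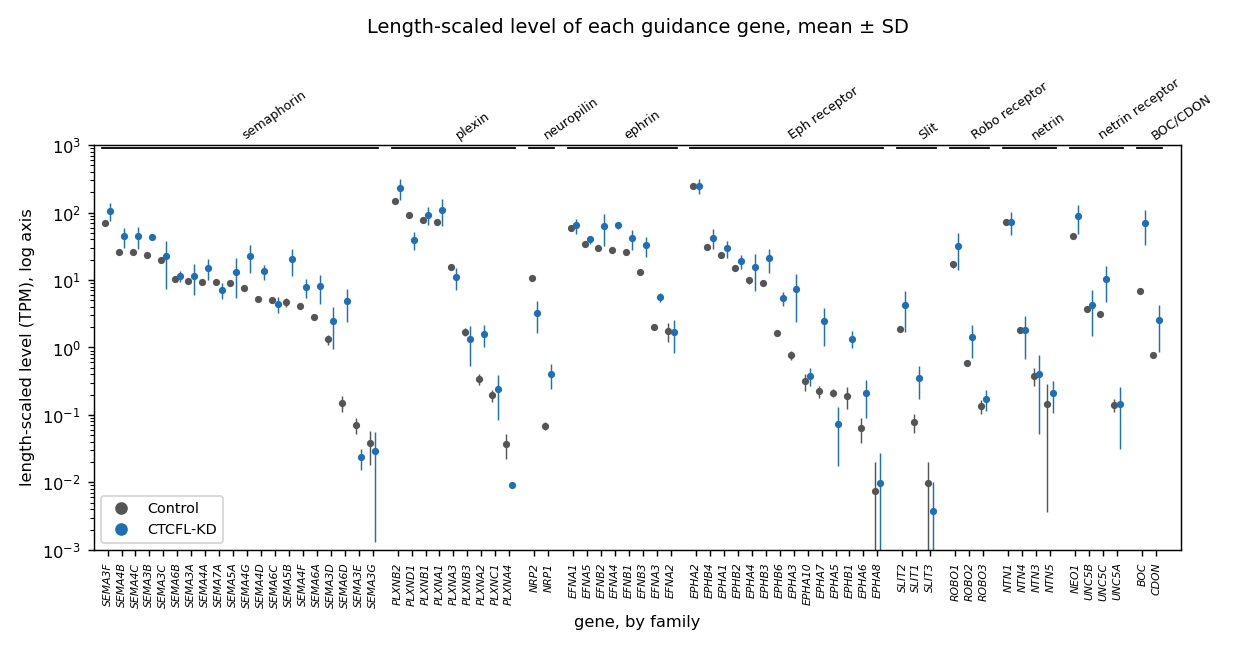
Length-scaled level (TPM, log axis) of each guidance gene with a count in Control, by family, as the mean ± SD of 3 Control libraries (grey) and 3 CTCFL-KD libraries (blue). SD bars that pass below 0 run to the foot of the axis. EPHA2 and PLXNB2 had the highest Control levels, and the wide knockdown bars contain replicate 1.

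Knockdown of CTCFL was accompanied by higher levels of more than a single family of guidance genes. A gene was called in CTCFL-KD when its log2 fold change against Control was beyond 1 and its adjusted p under 0.05, using the quasi-likelihood test of edgeR, with p-values adjusted after Benjamini and Hochberg over all 17794 genes tested. By this rule 33 of the 60 tested guidance genes rose (55%), against 15.3% of all genes tested, and 1 fell, against 7.94%. The 33 include EPHB1, SLIT1 and NRP1, which passed the filter on low counts through the knockdown libraries alone. The median log2 fold change was 1.08 over the 60 genes and 0.08 over all genes tested, and 54 of the 60 values were positive. The 33 genes comprised 18 of 30 tested ligands and 15 of 30 tested receptors. All 3 knockdown libraries lay above all 3 Control libraries for 46 of the 60 genes (76.7%), against 28.7% of all genes tested. Without CTCFL-KD replicate 1, 36 guidance genes rose and 1 fell, and all 33 genes of the first count were among the 36. The 3 genes added were EPHA4, PLXNA1 and SEMA5A, so that 7 Eph receptors, 3 plexins and 12 semaphorins rose, and the counts of the other families did not change. For the 33 genes the log2 fold change without this library was larger in 26 and smaller in 7, with shifts from −0.38 for EFNA4 to 0.37 for CDON.

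Of the guidance genes at 5 CPM or more in Control, all 42 were tested and 21 rose, beside 10.9% of tested protein-coding genes at that level. Of those under 5 CPM, 12 of 18 tested genes rose, beside 33.0% of tested protein-coding genes. Of these 12, EPHB1, SLIT1 and NRP1 passed the filter on low counts through the knockdown libraries alone and thus could only be seen to rise. SEMA6D and EPHA6 passed it through the CTCFL-OE and CTCFL-KD libraries, where they were higher, and not through the Control libraries. The difference between the levels was not tested. Apart from the 60 genes, 12 did not pass the filter (EPHA8, ROBO3, ROBO4, SLIT3, NTN3, NTN5, DCC, UNC5A, UNC5D, PLXNA4, SEMA3E and SEMA3G).

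**Figure D2:**
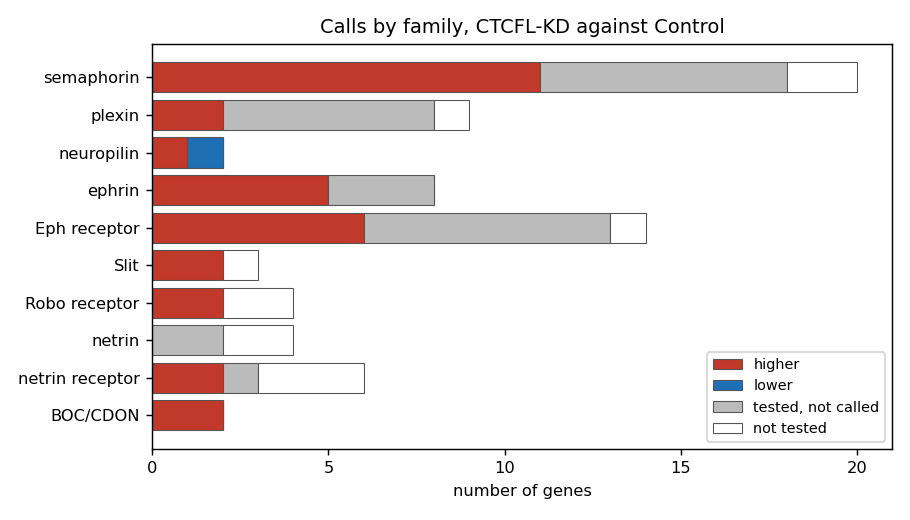
Number of guidance genes in each family that were called higher (red), called lower (blue), tested without a call (grey) or not tested (white) in CTCFL-KD against Control, with the number of genes on the horizontal axis. Semaphorins contributed 11 of the 33 genes called higher, and NRP2 was the gene called lower.

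Overexpression moved fewer guidance genes. With the threshold on the adjusted p at 0.1 in this comparison, 5 of the 60 tested genes rose (8.33%), against 1.37% of all genes tested, and they were SEMA6D, SEMA5B, BOC, EPHA7 and ROBO2. In this fit no tested guidance gene was called lower by edgeR, against 0.702% of all genes, and none by DESeq2, while 2 (NRP2 and EFNA2) were lower at an unadjusted p under 0.05. NRP2 also passed on the adjusted p in edgeR and missed only the threshold on size. For 20 of the 60 genes (33.3%) every CTCFL-OE library exceeded every Control library, against 16.3% of all genes tested. The median log2 fold change was 0.40 over the 60 genes and −0.01 over all genes. The summed level of the 72 genes spread more among the CTCFL-OE libraries (2718, 3876 and 4666 CPM) than among the Control libraries (2914, 2946 and 2968 CPM), and mitochondrial transcripts took 7.40%, 12.4% and 14.9% of the counts of the same CTCFL-OE libraries, in that order. The part of that share in the result was not tested. The 5 calls depended on single libraries. When each Control or CTCFL-OE library was left out in turn, between 0 and 8 guidance genes were called, with 0 without Control replicate 1 or Control replicate 3, 1 without Control replicate 2, CTCFL-OE replicate 2 or CTCFL-OE replicate 3, and 8 without CTCFL-OE replicate 1. The calls over all genes moved in the same fits, from 368 to 45, 61 and 44 without Control replicates 1, 2 and 3, and to 1184, 79 and 109 without CTCFL-OE replicates 1, 2 and 3. It was 8 without CTCFL-KD replicate 1, of which 1 was lower, and 3 without CTCFL-KD replicate 2 or 3. The calls over all genes were then 980 without CTCFL-KD replicate 1, and 328 and 321 without replicates 2 and 3.

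**Figure D3:**
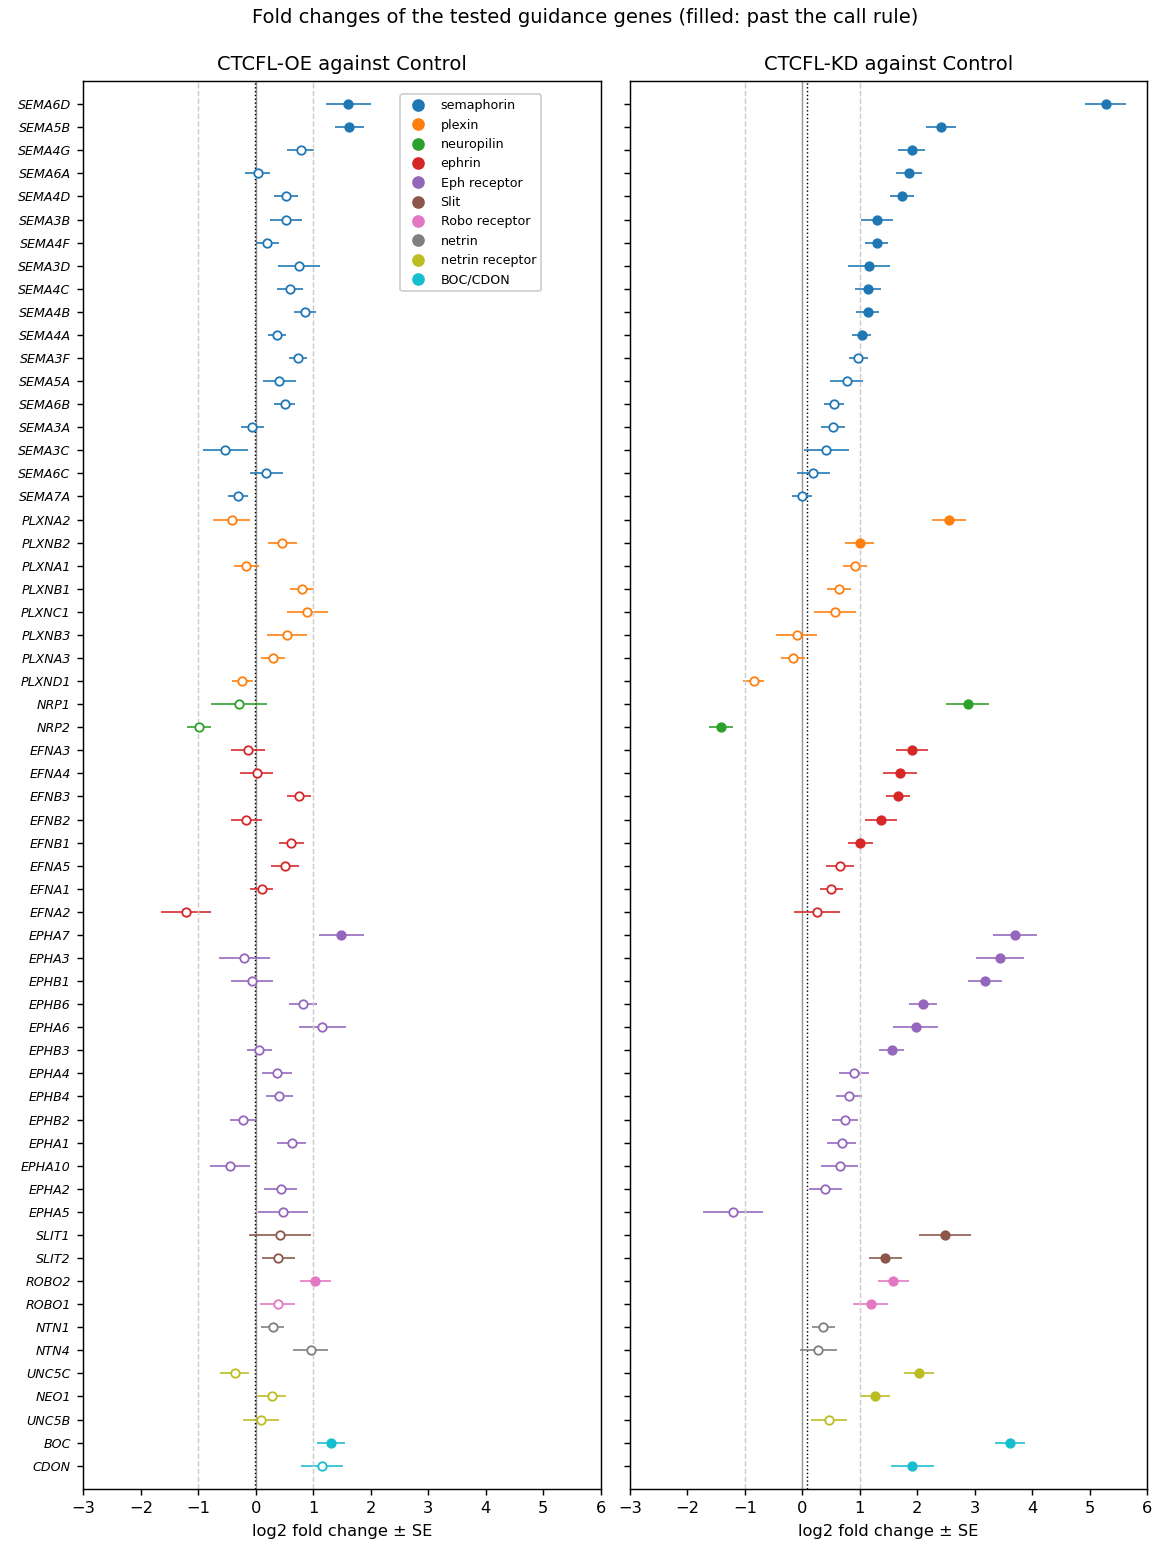
Log2 fold change ± SE of the 60 tested guidance genes in CTCFL-OE (left) and CTCFL-KD (right) against the shared Control libraries, coloured by family and ordered within family by the knockdown value. Filled points passed the call rule, dashed lines mark a log2 fold change of −1 and 1, and dotted lines mark the median of all genes tested. SEMA6D stood farthest to the right in CTCFL-KD at 5.28.

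The 5 genes that rose in CTCFL-OE are described with their values in both comparisons, which share the Control libraries. SEMA6D, a transmembrane class 6 semaphorin that binds PLXNA1, lies at chr15:47184101-47774228 on the plus strand (GRCh38). Its level was 0.30, 0.466 and 0.506 CPM in Control, 0.958, 1.20 and 1.84 CPM in CTCFL-OE and 11, 19.7 and 19.4 CPM in CTCFL-KD. The 3 conditions did not overlap, and the knockdown libraries stood far above the others. With 6, 12 and 10 counts, the Control libraries did not carry the gene past the filter on low counts. The log2 fold change was 1.61 ± 0.39 (SE, edgeR, adjusted p = 0.0795) in CTCFL-OE and 5.28 ± 0.36 (adjusted p = 4.98e-06) in CTCFL-KD, the largest among the guidance genes tested. The call in CTCFL-OE was kept in 1 of the 6 fits that left out a Control or CTCFL-OE library.

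SEMA5B, a transmembrane class 5 semaphorin with thrombospondin repeats, was at 13.1, 15.0 and 11.2 CPM in Control, 55.5, 36.2 and 29.6 CPM in CTCFL-OE and 55.8, 76.3 and 78.0 CPM in CTCFL-KD (chr3:122909082-123028605, minus strand). Both treated conditions lay above Control, and the highest CTCFL-OE library lay just below the lowest knockdown library. Its log2 fold changes were 1.62 ± 0.25 (edgeR, adjusted p = 0.0164) and 2.42 ± 0.26 (adjusted p = 6.94e-05). The overexpression call was kept in 4 of the 6 fits with a library left out, the most of the 5 genes, and was lost without Control replicate 1 (adjusted p = 0.117) or Control replicate 3 (adjusted p = 0.133).

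EPHA7, a receptor of A-type ephrins, was at 1.0, 1.17 and 1.47 CPM in Control, 2.19, 3.08 and 5.04 CPM in CTCFL-OE and 9.11, 19.1 and 19.1 CPM in CTCFL-KD (chr6:93240020-93419687, minus strand). The conditions did not overlap, and CTCFL-KD replicate 1 was below the other knockdown libraries. Its log2 fold change was 1.49 ± 0.39 in CTCFL-OE (edgeR, adjusted p = 0.0939) and 3.70 ± 0.39 in CTCFL-KD (adjusted p = 5.91e-05). ROBO2, a receptor of Slit ligands, was at 3.21, 2.88 and 3.54 CPM in Control, 4.97, 6.48 and 8.30 CPM in CTCFL-OE and 6.40, 11.2 and 11.1 CPM in CTCFL-KD (chr3:75906695-77649964, plus strand). Here the treated conditions overlapped each other and neither overlapped Control. Its log2 fold change was 1.03 ± 0.27 (edgeR, adjusted p = 0.0940) and 1.58 ± 0.27 (adjusted p = 0.00123). The calls of EPHA7 and ROBO2 in CTCFL-OE were each kept in 1 of 6 fits with a Control or CTCFL-OE library left out.

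BOC was the most abundant of the 5 genes and the best measured, with 442 to 6322 counts a library. It was at 22.6, 25.8 and 22.4 CPM in Control, 59.4, 53.7 and 62.1 CPM in CTCFL-OE and 182, 335 and 346 CPM in CTCFL-KD. Within each of the first 2 conditions the libraries lay close together, and the lowest knockdown library was again replicate 1. The log2 fold change was 1.31 ± 0.24 in CTCFL-OE (edgeR, adjusted p = 0.0314) and 3.61 ± 0.26 in CTCFL-KD (adjusted p = 6.3e-06), where the fold was 12.2. In CTCFL-OE the log2 fold change stayed between 1.24 and 1.37 in all 20 alternative fits, while the adjusted p passed 0.1 in 5 of the 6 fits that left out a Control or CTCFL-OE library, where it reached 0.217. CDON, the paralog of BOC, was at 5.11, 5.21 and 5.17 CPM in Control, 9.17, 11.3 and 14.1 CPM in CTCFL-OE and 7.94, 23.4 and 26.6 CPM in CTCFL-KD. Every treated library was above every Control library. CDON rose in CTCFL-KD (log2 fold change 1.91 ± 0.37, edgeR, adjusted p = 0.00254), and its value of 1.16 ± 0.37 in CTCFL-OE did not pass (adjusted p = 0.150), although it passed in 8 of the 20 alternative fits.

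BOC is also the guidance gene for which the study lists a candidate CTCFL binding sequence, so its place in the genome is shown. The study also names genes, VEGFA among them, whose sites were occupied by CTCFL and CTCF in another ovarian cancer cell line. BOC is not among the genes so named. The 11 listed bases were found by their letters on the plus strand of chr3:113249520-113249530 (GRCh38), and they are in capitals in this stretch of chr3:113249475-113249575.

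BOC, intronic site: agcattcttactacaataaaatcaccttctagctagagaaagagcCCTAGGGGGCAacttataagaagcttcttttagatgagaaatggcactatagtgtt

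BOC itself spans chr3:113211003-113287459 on the plus strand. The site lies in an intron, within 11 of the 18 annotated BOC transcripts and in none of their exons. The next exon begins 191 bases downstream, and the first annotated transcript start is 38517 bases upstream. The nearest annotated start lies downstream, at chr3:113261698. The study's methods describe a search of sequence flanking transcript starts.

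The 7 letters AGGGGGC of this site were then searched on both strands in windows from 250 bases before to 50 bases after each transcript start given by RefSeq (GRCh38.p14), which held 97 windows for 62 of the 72 guidance genes. They occurred in 25 of the 97 windows (25.8%), against 14.4% of all 35116 windows and 17.6% of those of protein-coding genes. Among the guidance genes, 20 of 52 windows of genes that rose in CTCFL-KD held them (38.5%) and 5 of 32 windows of tested genes that were not called higher (15.6%). Over all protein-coding genes the same shares were 21% and 18.8%. The letters come from BOC, itself among the genes that rose, and windows of the same gene are not independent. The difference between the shares was not tested. The median GC content of the guidance windows was 63.5% for the genes that rose and 73.0% for the others. Of the 5 genes that rose in CTCFL-OE, BOC, SEMA5B and EPHA7 each had the letters in 1 window, whereas the windows of SEMA6D and ROBO2 lacked them. A match of 7 letters describes a sequence and shows no binding. The matches are shown with their surroundings, on the strand of each gene and with the letters, or their reverse complement, in capitals. That of BOC begins 30 bases before a transcript start, outside annotated exons (chr3:113212075-113212103). The window of SEMA5B held 3 copies, of which the one outside annotated exons is shown, 169 bases before the start (chr3:123027915-123027943). That of EPHA7, 48 bases before the start, lies in an exon of a longer transcript (chr6:93419590-93419618).

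BOC: tcggggagaggAGGGGGCgggaggcggcc

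SEMA5B: ggatgcagggcGCCCCCTcgcgctcctcc

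EPHA7: ctcggagccccGCCCCCTccccccctaat

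Among the semaphorins, 11 of 18 tested genes rose in CTCFL-KD. All 6 class 4 semaphorins, transmembrane ligands of plexins B and D, rose, with log2 fold changes from 1.03 to 1.91. SEMA4G was at 13.0, 12.6 and 13.8 CPM in Control and 38.4, 56.8 and 52.2 CPM in CTCFL-KD, with 15.7, 26.6 and 25.3 CPM in CTCFL-OE. SEMA4D, a ligand of PLXNB1 known from immune cells and tumour vessels, was at 24.6, 23.7 and 25.9 CPM in Control, 25.7, 36.4 and 44.9 CPM in CTCFL-OE and 88.5, 79.3 and 79.0 CPM in CTCFL-KD. Their knockdown libraries were above all others, and the log2 fold changes were 1.91 ± 0.23 (edgeR, adjusted p = 0.000161) and 1.73 ± 0.21 (adjusted p = 0.000145). SEMA6A, a class 6 ligand of plexins A, was at 10.4, 10.2 and 9.52 CPM in Control, 9.35, 8.62 and 12.8 CPM in CTCFL-OE and 27.0, 43.0 and 38.7 CPM in CTCFL-KD. It rose by a log2 fold change of 1.85 ± 0.22 (adjusted p = 0.000142), while its CTCFL-OE libraries spanned the Control values. SEMA4B, with 57.9, 61.9 and 59.9 CPM in Control, 80.8, 109 and 135 CPM in CTCFL-OE and 128, 126 and 142 CPM in CTCFL-KD, had the highest Control level in CPM of class 4. Its knockdown log2 fold change was 1.14 ± 0.20 (adjusted p = 0.00134), and its value in CTCFL-OE, 0.86, passed on the adjusted p (0.0668) and not on size. SEMA4A, at 21.2, 22.5 and 19.8 CPM in Control and 40.1, 47.5 and 42.1 CPM in CTCFL-KD, lay close to the threshold (1.03 ± 0.16, adjusted p = 0.00065) and was called in 4 of the 6 fits with a Control or CTCFL-KD library left out. Of the 5 tested class 3 semaphorins, which are secreted, 2 rose, SEMA3B and SEMA3D. SEMA3B, known as a tumour suppressor lost from the short arm of chromosome 3, was at 47.8, 46.4 and 41.1 CPM in Control, 40.3, 74.8 and 80.1 CPM in CTCFL-OE and 150, 88.4 and 95.2 CPM in CTCFL-KD, where replicate 1 was the highest (1.30 ± 0.28, adjusted p = 0.00458). SEMA3F, the most abundant semaphorin, stayed just under the threshold on size, at 112, 104 and 115 CPM in Control and 218, 219 and 215 CPM in CTCFL-KD (0.98 ± 0.16, adjusted p = 0.000964). SEMA3D is the only one of the 33 genes whose knockdown values (3.79, 9.99 and 10.1 CPM) overlapped those of Control (3.41, 3.11 and 4.30 CPM), and its call was kept in 1 of the 6 fits with a Control or CTCFL-KD library left out.

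Of 8 tested plexins, PLXNA2 and PLXNB2 rose in CTCFL-KD. PLXNA2, a receptor of class 3 and class 6 semaphorins, was at 1.30, 1.51 and 1.87 CPM in Control, 0.684, 1.10 and 1.78 CPM in CTCFL-OE and 8.30, 9.69 and 9.64 CPM in CTCFL-KD. It rose by a log2 fold change of 2.56 ± 0.30 (edgeR, adjusted p = 0.000119), the largest among plexins. PLXNB2, the most abundant plexin, was at 351, 357 and 359 CPM in Control, 300, 556 and 614 CPM in CTCFL-OE and 653, 732 and 750 CPM in CTCFL-KD. The log2 fold change of 1.0 ± 0.25 (adjusted p = 0.0106) lay on the threshold, and it was not called with the replicate number as a block (0.99) or in 14 other of the 20 alternative fits. PLXNA1 was at 265, 263 and 278 CPM in Control and 415, 588 and 521 CPM in CTCFL-KD, with a log2 fold change of 0.92 ± 0.21 that stayed under the threshold on size (adjusted p = 0.00683). The same held for PLXNB1, with 253, 263 and 226 CPM against 389, 388 and 378 CPM and a log2 fold change of 0.64 ± 0.21 (adjusted p = 0.0316). In CTCFL-OE PLXNB1 was at 320, 463 and 518 CPM, a log2 fold change of 0.81 ± 0.21 (adjusted p = 0.0891). PLXND1, the receptor of SEMA3E, went the other way, from 284, 284 and 299 CPM in Control and 202, 246 and 290 CPM in CTCFL-OE to 160, 161 and 161 CPM in CTCFL-KD, with a log2 fold change of −0.85 ± 0.18 (adjusted p = 0.00399). It was thus below every Control library without reaching the threshold on size.

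The neuropilins, co-receptors of class 3 semaphorins and of VEGF, were far apart in level. NRP2 was at 44.9, 51.2 and 49.5 CPM in Control, 20.9, 26.6 and 25.9 CPM in CTCFL-OE and 12.7, 20.4 and 21.2 CPM in CTCFL-KD. All treated libraries were below all Control libraries. It fell by a log2 fold change of 1.42 in CTCFL-KD (SE 0.21, edgeR, adjusted p = 0.000567) and was called in all 6 fits that left out a Control or CTCFL-KD library, whereas its value of −0.99 ± 0.21 in CTCFL-OE (adjusted p = 0.0546) stayed just under the threshold on size. NRP1 was at 0.250, 0.233 and 0.304 CPM in Control, 0.0912, 0.314 and 0.246 CPM in CTCFL-OE and 1.71, 2.32 and 1.81 CPM in CTCFL-KD. It went from 5 or 6 counts a Control library to 19, 39 and 33 counts, and since it passed the filter through the knockdown libraries alone, it could only be seen to rise and no p is given. On the length-scaled scale NRP2 remained the more abundant neuropilin in CTCFL-KD, at 3.25 against 0.41 TPM.

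**Figure D4:**
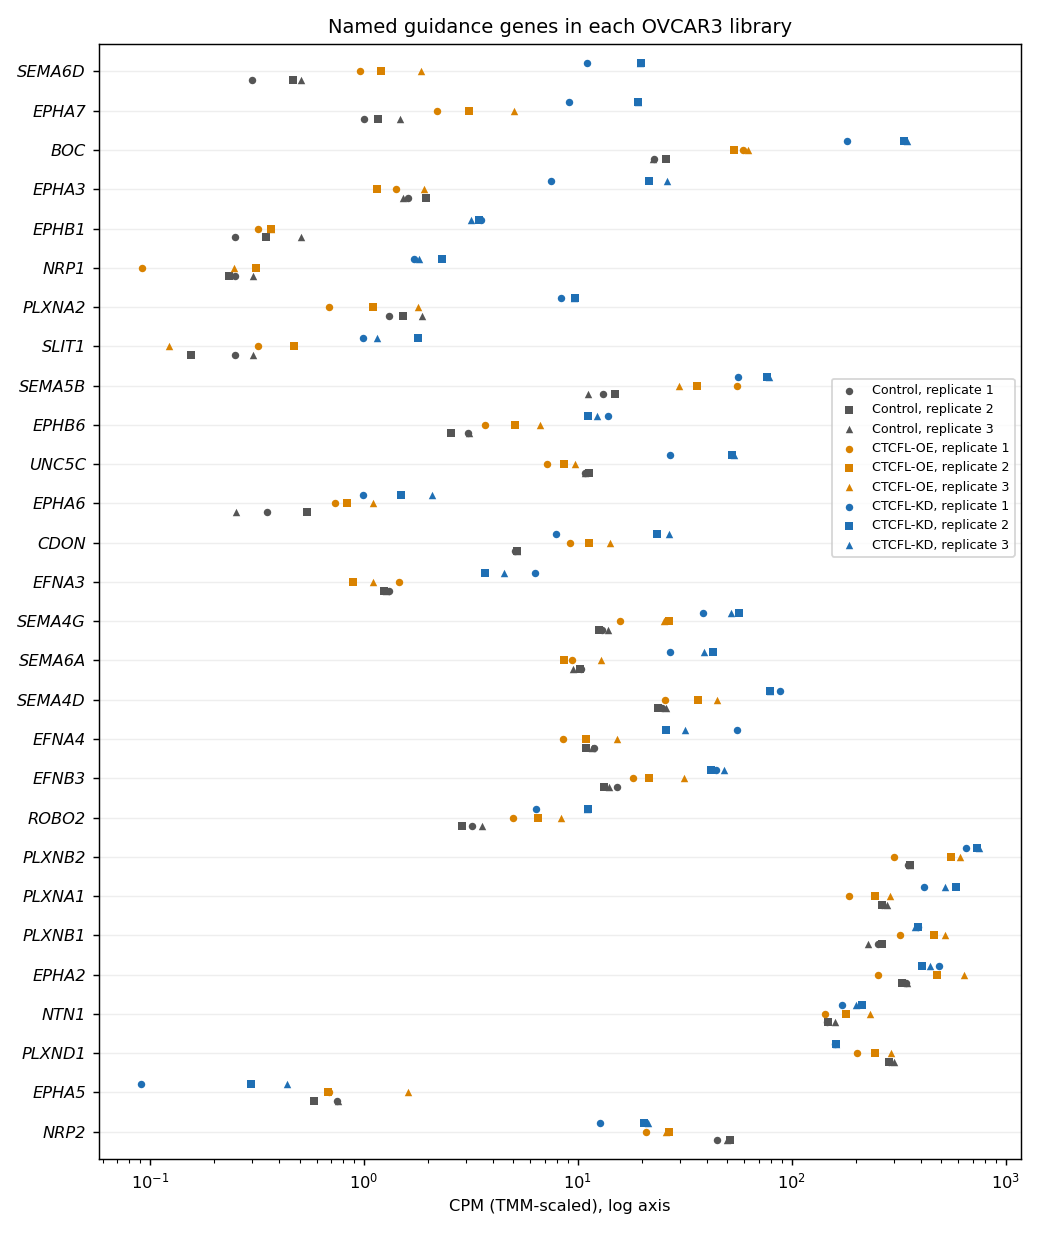
CPM (log axis) of the named guidance genes in each library, with colour for the condition and marker shape for the replicate number, ordered by the log2 fold change in CTCFL-KD. From the top row down to NTN1 every knockdown library lay above every Control library, and NRP2 at the foot was lower in all treated libraries than in Control.

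Among the ephrins, 5 of 8 rose in CTCFL-KD, EFNA3, EFNA4 and all 3 B-type ephrins, and all 8 fold changes were positive. EFNA3 and EFNA4, which are held in the membrane by a lipid anchor and bind EPHA receptors, were highest in CTCFL-KD replicate 1. EFNA4 was at 11.9, 11 and 11.6 CPM in Control, 8.53, 11 and 15.3 CPM in CTCFL-OE and 55.2, 25.7 and 31.8 CPM in CTCFL-KD, with a log2 fold change of 1.71 ± 0.30 (edgeR, adjusted p = 0.00134). EFNA3 was at 1.30, 1.24 and 1.27 CPM in Control, 1.46, 0.888 and 1.11 CPM in CTCFL-OE and 6.31, 3.69 and 4.49 CPM in CTCFL-KD, with a log2 fold change of 1.91 ± 0.28 (adjusted p = 0.000431). Neither showed a clear shift of its CTCFL-OE libraries. EFNB3, a transmembrane ligand of EPHB receptors, was at 15.3, 13.2 and 13.9 CPM in Control, 18.1, 21.5 and 31.4 CPM in CTCFL-OE and 44.1, 42.1 and 48.0 CPM in CTCFL-KD. Here the 3 conditions did not overlap, and the log2 fold change in CTCFL-KD was 1.66 ± 0.21 (adjusted p = 0.00021). EFNB2, a B-type ephrin known from arterial endothelium, was at 50.5, 49.2 and 49.7 CPM in Control, 30, 41.9 and 61.4 CPM in CTCFL-OE and 91.8, 138 and 155 CPM in CTCFL-KD (1.37 ± 0.27, adjusted p = 0.00282). Its CTCFL-OE libraries lay on both sides of the Control values. EFNB1 rose by 1.01 ± 0.22 (adjusted p = 0.00447), close to the threshold, and was called in 5 of the 6 fits with a Control or CTCFL-KD library left out.

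Of 13 tested Eph receptors, 6 rose in CTCFL-KD, EPHA3, EPHA6, EPHA7, EPHB1, EPHB3 and EPHB6. EPHA3, a receptor of A-type ephrins, was at 1.60, 1.94 and 1.52 CPM in Control, 1.41, 1.15 and 1.91 CPM in CTCFL-OE and 7.49, 21.4 and 26.0 CPM in CTCFL-KD. The log2 fold change of 3.44 ± 0.42 (edgeR, adjusted p = 0.000153) stood behind only those of SEMA6D, EPHA7 and BOC. EPHB1, a receptor of B-type ephrins, was at 0.250, 0.350 and 0.506 CPM in Control, 0.319, 0.366 and 0.369 CPM in CTCFL-OE and 3.52, 3.45 and 3.18 CPM in CTCFL-KD. The 3 knockdown libraries lay close together and above all others, and no p is given, since they alone carried the gene past the filter. EPHB6, an Eph receptor whose kinase domain is inactive, was at 3.06, 2.56 and 3.09 CPM in Control, 3.69, 5.07 and 6.64 CPM in CTCFL-OE and 13.9, 11.1 and 12.3 CPM in CTCFL-KD (2.10 ± 0.24, adjusted p = 0.000101). EPHA6 was at 0.351, 0.544 and 0.253 CPM in Control, 0.730, 0.836 and 1.11 CPM in CTCFL-OE and 0.992, 1.49 and 2.08 CPM in CTCFL-KD (1.97 ± 0.39, adjusted p = 0.00280), from 5 to 14 counts a Control library. EPHB3 was at 14.3, 12.2 and 13.7 CPM in Control, 9.90, 17.1 and 14.9 CPM in CTCFL-OE and 35.8, 37.6 and 44.5 CPM in CTCFL-KD (1.55 ± 0.21, adjusted p = 0.000343). The receptor that led in Control showed no call. EPHA2 was at 342, 328 and 345 CPM in Control, 252, 479 and 638 CPM in CTCFL-OE and 490, 406 and 442 CPM in CTCFL-KD, with a log2 fold change of 0.40 ± 0.29 (adjusted p = 0.293).

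Both tested Slits and both tested Robo receptors rose in CTCFL-KD. SLIT1, a secreted ligand of Robo receptors, was at 0.250, 0.155 and 0.304 CPM in Control, 0.319, 0.470 and 0.123 CPM in CTCFL-OE and 0.992, 1.78 and 1.15 CPM in CTCFL-KD. These are 4 to 6 counts a Control library and 11 to 30 a knockdown library, which alone carried the gene past the filter, so no p is given. SLIT2 was the more abundant Slit, at 6.46, 7.23 and 6.79 CPM in Control, 8.62, 8.99 and 9.28 CPM in CTCFL-OE and 9.65, 22.1 and 23.8 CPM in CTCFL-KD (1.44 ± 0.29, adjusted p = 0.00285). The 3 conditions did not overlap for SLIT2, and CTCFL-KD replicate 1 lay nearer to CTCFL-OE than to the other knockdown libraries. ROBO1, the most abundant Robo receptor, was at 56.0, 65.2 and 64.8 CPM in Control, 57.5, 73.6 and 112 CPM in CTCFL-OE and 82.1, 171 and 170 CPM in CTCFL-KD (1.19 ± 0.31, adjusted p = 0.0117). Its call was kept in 5 of the 6 fits with a Control or CTCFL-KD library left out.

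Among the netrins and their receptors, calls were made for receptors. NTN1 was at 146, 148 and 159 CPM in Control, 142, 180 and 233 CPM in CTCFL-OE and 172, 212 and 200 CPM in CTCFL-KD, with a log2 fold change of 0.37 ± 0.20 in CTCFL-KD (edgeR, adjusted p = 0.174). Of the 3 tested receptors, UNC5C and NEO1 rose. UNC5C, a receptor tied to repulsion from netrin and to cell death in its absence, was at 10.8, 11.2 and 10.7 CPM in Control, 7.16, 8.57 and 9.71 CPM in CTCFL-OE and 27.0, 52.7 and 53.6 CPM in CTCFL-KD. It rose by a log2 fold change of 2.03 ± 0.26 (adjusted p = 0.000204), while its CTCFL-OE libraries lay below those of Control. The difference between the netrins and their receptors was not tested.

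CTCFL-KD was also set against CTCFL-OE directly, with the threshold on the adjusted p at 0.05. Of the 60 tested guidance genes 22 were higher in CTCFL-KD (36.7%), against 10.6% of all genes tested, and 1 was lower, against 6.42%. The 22 include EPHB1, SLIT1 and NRP1, which passed the filter through the knockdown libraries alone and could only be seen higher in CTCFL-KD. Without CTCFL-KD replicate 1, 27 were higher and the gene called lower lost its call. Among the 5 genes that rose in CTCFL-OE, SEMA6D, EPHA7 and BOC were higher in CTCFL-KD than in CTCFL-OE, with log2 differences of 3.67 ± 0.32 (edgeR, adjusted p = 3.37e-05), 2.21 ± 0.35 (adjusted p = 0.00117) and 2.30 ± 0.24 (adjusted p = 9.83e-05). The log2 differences of SEMA5B, 0.79 ± 0.25 (adjusted p = 0.0355), and ROBO2, 0.55 ± 0.26 (adjusted p = 0.140), did not pass. The largest differences among genes not called in CTCFL-OE were, apart from EPHB1 and NRP1, whose knockdown libraries alone carried them past the filter, those of EPHA3 (3.63 ± 0.43) and PLXNA2 (2.98 ± 0.31). The gene that was lower in CTCFL-KD was EPHA5, named here after its values were seen, at 0.0902, 0.297 and 0.438 CPM against 0.684, 0.679 and 1.60 CPM in CTCFL-OE, with 1, 5 and 8 counts in the knockdown libraries (−1.68 ± 0.52, adjusted p = 0.0341). Its call was lost without any of 5 single libraries, Control replicate 1 or 3, CTCFL-OE replicate 3 and CTCFL-KD replicate 1 or 2, with adjusted p between 0.0511 and 0.111.

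Other genes of the guidance pathway, 67 in a list that was drawn up with earlier results of these data known, moved in both directions. Of the 64 that were tested, 16 rose and 12 fell in CTCFL-KD, with a median log2 fold change of −0.16, and 1 rose and 1 fell in CTCFL-OE. As shares these are 25% higher and 18.8% lower in CTCFL-KD, beside 15.3% and 7.94% of all genes tested, and 1.56% in each direction in CTCFL-OE, beside 1.37% and 0.702%. Without CTCFL-KD replicate 1, 19 rose and 9 fell in CTCFL-KD. The list has 2 parts. Of 15 tested co-ligands, adhesion partners and co-receptors, 12 rose (80%) and 2 (L1CAM and NRCAM) fell (13.3%) in CTCFL-KD. RGMA, CHL1, CXCL12 and FLRT1, which are 4 of the 12, passed the filter on low counts only with the knockdown libraries where they are high, and of the other 11 tested genes 8 rose and 2 fell. Of 49 tested intracellular effectors 4 rose (8.16%) and 10 fell (20.4%), and the difference between the parts was not tested. RGMB, a NEO1 ligand and BMP co-receptor, was at 8.71, 7.42 and 9.62 CPM in Control, 11.5, 12.1 and 15.6 CPM in CTCFL-OE and 54.8, 61.3 and 63.3 CPM in CTCFL-KD, with a log2 fold change of 2.8 ± 0.19 (edgeR, adjusted p = 4.36e-06). Its relative RGMA, also a NEO1 ligand, went from 4, 1 and 3 counts in Control to 13, 24 and 26 counts in CTCFL-KD, so few in Control that no fold is given. Their receptor NEO1 was at 114, 127 and 124 CPM in Control and 218, 335 and 327 CPM in CTCFL-KD. CHL1, a neural adhesion molecule that acts with semaphorin receptors, had no count in any Control library and 9, 32 and 38 counts in CTCFL-KD, at least 11.45-fold higher against a floor of 3 counts per library. CXCL12, a chemokine, had 1, 0 and 0 counts in Control and 22, 45 and 41 in CTCFL-KD, and no fold is given here either. These 3 genes could only be seen to rise, and no p is given for them.

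The pathway genes called in CTCFL-OE were VEGFA and DPYSL3. VEGFA, an angiogenic ligand of neuropilins, was at 13.9, 14.8 and 14.1 CPM in Control, 22.8, 35.4 and 35.6 CPM in CTCFL-OE and 48.3, 62.5 and 97.6 CPM in CTCFL-KD. It rose in both conditions, by log2 fold changes of 1.13 ± 0.27 (edgeR, adjusted p = 0.0725) and 2.29 ± 0.27 (adjusted p = 0.000147). DPYSL3, a cytoskeletal mediator of semaphorin signalling, was at 0.952, 0.855 and 0.810 CPM in Control, 0.410, 0.104 and 0.246 CPM in CTCFL-OE and 4.96, 6.54 and 5.20 CPM in CTCFL-KD. It fell in CTCFL-OE (−1.72 ± 0.40, adjusted p = 0.0684, from 16 to 22 counts to 2 to 9 counts) and rose in CTCFL-KD (2.67 ± 0.30, adjusted p = 9.24e-05). Neither call in CTCFL-OE was kept without any single Control library or without CTCFL-OE replicate 2 or 3.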

How the data were processed

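RNA-seq counts of 9 OVCAR3 libraries were used, 3 for every condition, and groups were taken from the sample labels. The values deposited by the authors are raw counts of reads per Ensembl gene ID on GRCh38, made with featureCounts. The study's methods name STAR as the aligner, whereas the submitters' processing notes list Trimmomatic and kallisto beside featureCounts, and the annotation release, strand and multimapping settings are not given in the sources used here. Overlapping genes and close paralogs are therefore less certain. All 9 library files equalled the combined count table.

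Counts were fitted with edgeR 4.0.16 in R 4.3.3 (quasi-likelihood, robust, TMM scaling, filterByExpr, all 9 libraries in 1 fit), with Benjamini-Hochberg adjustment over 17794 genes. A gene was called at a log2 fold change beyond 1 and an adjusted p under 0.1 (CTCFL-OE) or 0.05 (CTCFL-KD), thresholds that follow the study, and at 0.05 for CTCFL-KD against CTCFL-OE, which was chosen here. CPM were computed with TMM-scaled library sizes, and TPM from exonic lengths in GENCODE release 44. Library totals of 14332622 to 24490080 set a floor of 3 counts at 0.117 to 0.271 CPM, which covers counting error only.

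The members and lists were chosen with earlier results of these data known. The genes named were those called in CTCFL-OE, the 20 largest changes called in CTCFL-KD at 1 CPM or more, the 6 highest Control levels, BOC, CDON and EPHA7, and those called in all 3 comparisons. The other guidance genes with values, such as NRP2, EPHA5, SEMA3D, SEMA3F, EFNB2, SLIT2, ROBO1 and NEO1, and the named genes of the other pathway lists, were described after their values were seen. Same-numbered Control and CTCFL-KD libraries deviated together (correlations 0.332, 0.185 and 0.232 across 13025 genes), so these numbers were treated as pairs in an alternative fit. Those of Control and CTCFL-OE did not (−0.043, 0.218 and −0.052). Replicate 1 of Control and of CTCFL-KD shared the fall with transcript length, and the part of that trend in the correlations was not tested. Alternatives were DESeq2 1.42.0, other scalings and filters, fits without robust estimation or with the 2 groups alone, the replicate block, length and GC offsets, and each library left out. A named gene of the pathway lists is not reported here.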

Additional observations from a re-analysis of the deposited data

How the results depend on the processing

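The 5 guidance genes called in CTCFL-OE were the least stable count. It was 8 without a filter on low counts, 3 with at least 10 counts in every library, 9 on the adjusted p alone, and 9 with length and GC offsets without CTCFL-KD replicate 1, an alternative chosen after seeing the data, and it ranged from 0 to 8 with 1 library left out. These counts include 1 gene called lower without the filter, 1 on the adjusted p alone, 1 without CTCFL-KD replicate 1, 1 with the replicate block and length and GC offsets together, and 2 with the offsets without CTCFL-KD replicate 1. For the other pathway genes, the 2 calls in CTCFL-OE became 1 with at least 10 counts, 1 with the replicate block and 4 on the adjusted p alone, and ranged from 0 to 4 with a library left out, and the 28 calls in CTCFL-KD became 43 on the adjusted p alone. The 34 guidance genes called in CTCFL-KD ranged from 29 to 43 over all alternatives, and were 31 with DESeq2. With the replicate block, 33 guidance genes were called in CTCFL-KD, 5 in CTCFL-OE and 22 in CTCFL-KD against CTCFL-OE. Of the 33 genes that rose in CTCFL-KD, 32 kept their call with the block (all but PLXNB2), 27 with length and GC offsets, 28 in each of the 6 fits without a Control or CTCFL-KD library and 25 in all 20 alternatives. Leaving out single libraries also moved the calls over all genes in CTCFL-OE, from 368 to between 44 and 1184. Over 60 called fold changes of named genes and 1180 refits no direction reversed and 65 lost the call. The losses were 38 of 138 refits in CTCFL-OE, 15 of 571 in CTCFL-KD and 12 of 471 in CTCFL-KD against CTCFL-OE. The cause was not tested. At this depth, values of about 10 counts a library or fewer, such as those of CTCFL, NRP1 and SLIT1 in Control and of EPHA5 in CTCFL-KD, are measured coarsely.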

Other observations

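Across the 60 tested guidance genes the log2 fold change in CTCFL-KD had a Spearman correlation of 0.06 with transcript length and −0.41 with the Control CPM, given as a description, since the genes share their libraries and the fold change contains the Control level. The summed length-scaled level of neuropilins was 10.7 ± 0.947 TPM in Control, 4.65 ± 0.486 TPM in CTCFL-OE and 3.65 ± 1.75 TPM in CTCFL-KD (SD, n = 3), and that of BOC and CDON was 7.70 ± 0.706, 16.4 ± 2.10 and 72.7 ± 39.0 TPM in the same order.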
